A study of Mus musculus with 32 samples.

Results

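Apolipoproteins and the genes that load lipid onto them were followed in the livers of male C57/BL6 mice across diet, treatment and liver surgery. The 10 genes were chosen by name: Apoa1, Apoa2, Apoa4, Apoa5, Apob, Apoc1, Apoc2, Apoc3, Apoe and Mttp, out of 34947 genes named on the array. They were read by 13 probes, 1 for each gene except Apoa2, Apob and Apoc3, which had a pair each. All 13 probes were well above background on all 32 arrays, so no member was lost to the filter on dim probes. None had a spot flagged as saturated, but neither had any of the 55681 probes on the array.

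Liver RNA was hybridised to 32 one-colour arrays, 4 for each of 8 groups. Mice were fed standard chow (C) or a diet deficient in methionine and choline (MCD) for 3 weeks, and a treated group on each diet (C+Fc-GLP-1 on chow, M+Fc-GLP-1 on MCD) received Fc-GLP-1, an agonist of the GLP-1 receptor, during the last 2 weeks. In the methods, C and MCD mice were given saline. The other 4 groups are counterparts of these on the same diets, killed 2 weeks after a partial hepatectomy (PH) that removed 70% of the liver. Their livers come only from animals that outlived the surgery. The paper reports that deaths after PH were fewer with treatment, on either diet. The part of this unequal survival in comparisons that involve groups after PH was not tested. The labels name the agent differently in different fields, in some as Fc-GLP-1 and in others as a dual agonist that also acts on the glucagon receptor, which the labelled protocol doses at 4.4 mg/kg/day. For chow-fed mice after PH the sample source gives Fc-GLP-1 before surgery and the dual agonist after it. For MCD-fed mice it gives Fc-GLP-1 and then an unchanged treatment, so by label the agent after PH may differ between the diets. The methods instead give Fc-GLP-1 on both diets, at 10 nmol/kg every 2 days, with diet and treatment continued after PH. The name Fc-GLP-1 is used here for all treated groups. The labels call the 4 arrays of a group biological replicates and leave unsaid whether any mouse gave both a liver sample at surgery and another 2 weeks later. The MCD diet is a model in which the liver fills with fat while the mice lose weight, and the labels give no group with another fatty diet.

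Apolipoproteins are the protein shell of lipoproteins, the particles that carry triglyceride and cholesterol in blood. In hepatocytes apolipoprotein B is loaded with triglyceride by the microsomal triglyceride transfer protein, encoded by Mttp, and is secreted in very low density lipoprotein (VLDL). The smaller apolipoproteins move between particles: A-I and A-II are the main proteins of high density lipoprotein (HDL), C-II activates lipoprotein lipase, C-III slows it, A-V raises triglyceride clearance, E is a ligand of lipoprotein receptors, and A-IV is best known from the intestine, where it is secreted with chylomicrons. Choline is needed for the phosphatidylcholine that coats VLDL.

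The sequences read by the arrays are shown for the genes on which the results turn: Apoa4, which differed most between the diets, and Apob, whose probes gave different answers. The Apoa4 probe lies on the forward strand of chromosome 9 within 46049661 to 46050404 of the mm9 build, a stretch of 744 bases for a 60-base probe, so that it crosses a splice junction. The Apob probes lie on the forward strand of chromosome 12 at 8012697 to 8012756 and at 8023194 to 8023253.
Apoa4 (A_51_P327491): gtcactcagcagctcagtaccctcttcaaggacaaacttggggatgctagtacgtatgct
Apob (A_55_P1957198): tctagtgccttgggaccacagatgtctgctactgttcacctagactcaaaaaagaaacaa
Apob (A_52_P441070): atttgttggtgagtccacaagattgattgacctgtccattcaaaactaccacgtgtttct

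Apoa1, Apoc3, Apoa4 and Apoa5 are neighbours on chromosome 9 (46228630 to 46271921 from the start of Apoa1 to the end of Apoa5 on GRCm38), and Apoe, Apoc1 and Apoc2 are neighbours on chromosome 7. The 250 bases before the starts of Apoa4 and Apoa5, the neighbours that were higher on the MCD diet, are shown from RefSeq on GRCm38, with the letters TATAAA in capitals.
Apoa4 (chr9:46240594-46240843, + strand): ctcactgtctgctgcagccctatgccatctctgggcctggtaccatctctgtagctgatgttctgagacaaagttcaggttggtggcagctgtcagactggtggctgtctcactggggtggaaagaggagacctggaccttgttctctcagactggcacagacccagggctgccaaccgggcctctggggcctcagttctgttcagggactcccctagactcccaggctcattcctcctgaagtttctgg
Apoa5 (chr9:46268358-46268607, + strand): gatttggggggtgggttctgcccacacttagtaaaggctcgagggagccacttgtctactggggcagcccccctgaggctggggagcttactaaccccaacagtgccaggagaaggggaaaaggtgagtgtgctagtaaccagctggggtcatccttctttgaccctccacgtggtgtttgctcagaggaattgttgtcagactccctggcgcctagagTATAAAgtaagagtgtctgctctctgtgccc

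Promoter windows were matched for 8 of the 10 genes, with Apoc1 and Apoc3 not in the table. The windows were searched on both strands for TATAAA (as in a TATA box), for AGGTCA (as in nuclear receptor sites), for CAAAGTCCA (as in HNF4 sites, held by 0.3835% of windows) and for TGACGT (as in CREB sites). TATAAA began 31 bases before the start of Apoa5 and 60 bases before that of Apob, and it is held by 12.37% of all 32851 windows. It also lay farther from the starts of Apoa2 and Apoe. AGGTCA (14.02% of windows) was found for Apoa2 and Apoc2, TGACGT (6.469%) for Mttp, and none of the 4 in the window of Apoa4. These are matches of letters and no binding was measured.

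Values are log2 processed signals from which the 75th percentile of the same array was subtracted, so that 0 is the level of that percentile, and differences are on that log2 scale. Levels of different probes cannot be set against each other. Standard errors and p-values come from limma fitted to all 32 arrays and 21290 genes, two-sided, with Benjamini-Hochberg adjustment over all of them, and a gene is said to have passed the test at an adjusted p under 0.05. Arrays differed in brightness: the 75th percentile of signal was between 209 and 778 and between 37.7% and 69.7% of spots were well above background. Arrays lay on 5 slides. C and MCD before PH shared a slide, both treated groups before PH shared another and both treated groups after PH likewise, while C after PH and MCD after PH each had a slide of their own, read on another scanner. The diet effect was therefore measured within a slide in 3 of 4 settings, and MCD and slide cannot be told apart in the fourth, among untreated mice after PH. Likewise slide and group cannot be told apart in any comparison of treated with untreated mice or of livers after and before PH. The array names end in different numbers for chow and MCD. If these numbers are places on a slide, diet and place cannot be told apart within the shared slides.

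Apoa4 had the widest range of the 10 genes. Before PH it was 2.45, 1.27, 2.40 and 2.37 in the C mice and 5.70, 6.04, 5.28 and 5.27 in the MCD mice. It was 2.87, 3.37, 4.25 and 3.81 in C+Fc-GLP-1 and 6.66, 6.14, 5.56 and 5.63 in M+Fc-GLP-1. Every MCD-fed liver lay above every chow-fed liver, with and without Fc-GLP-1. After PH the levels were 2.69, 2.11, 2.92 and 2.19 in C, 6.43, 6.36, 6.21 and 5.43 in MCD, 2.76, 3.17, 3.46 and 3.36 in C+Fc-GLP-1 and 7.33, 6.26, 5.30 and 6.66 in M+Fc-GLP-1. The diets were again separate in all 16 livers.

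Group means of Apoa4 ran from 2.12 ± 0.57 (SD, n = 4) in C before PH to 6.39 ± 0.85 in M+Fc-GLP-1 after PH, a range of 4.26 or 19.2-fold. In the order C before, C after, C+Fc-GLP-1 after, C+Fc-GLP-1 before, MCD before, M+Fc-GLP-1 before, MCD after and M+Fc-GLP-1 after, neighbours differed by more than their pooled SD at only 2 steps. These were the step of 0.71 from C to C+Fc-GLP-1 after PH and the step of 2.00 from C+Fc-GLP-1 before PH to MCD before PH. The higher level on MCD passed the test in all 4 settings: 3.45 ± 0.35 (SE), 10.9-fold, in untreated mice before PH (adjusted p = 3.94e-08), 2.42 ± 0.35, 5.36-fold, under Fc-GLP-1 before PH (1.7e-05), 3.63 ± 0.35, 12.4-fold, in untreated mice after PH (2.14e-08) and 3.20 ± 0.35, 9.20-fold, under Fc-GLP-1 after PH (1.66e-07). It also passed in every alternative run in these 4 settings. On chow, C+Fc-GLP-1 livers were above C livers before PH by 1.45 ± 0.35 (2.74-fold, limma adjusted p = 0.0249), with every value above the highest of C. That call was lost when either C replicate 2 (1.17, 0.089), C+Fc-GLP-1 replicate 3 (1.23, 0.0881) or replicate 4 (1.37, 0.0644) was left out, and in a fit of the compared groups alone (0.0948), and the adjusted p ranged from 0.0118 to 0.0948 over all alternatives. The diet by treatment interaction before PH, whose slide effects cancel if they are additive, was -1.03 ± 0.50 (adjusted p = 0.206).

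Fabp2, Vil1 and Apobec1 were the 3 tested genes of 6 enterocyte markers. Before PH their summed level was between 53.4 and 78.9 times the 75th percentile in C before PH, 75 and 110.2 in MCD, 61.0 and 138 in C+Fc-GLP-1 and 133 and 235 in M+Fc-GLP-1. After PH it was between 36.2 and 57.8 in C, 63.8 and 117 in MCD, 42.9 and 83.5 in C+Fc-GLP-1 and 89.3 and 138 in M+Fc-GLP-1. The median was 103 in C+Fc-GLP-1 and 97.1 in MCD before PH. Apobec1 was also counted among the regulators of apolipoprotein genes below, so the sum need not stand for enterocytes alone. The 3 other markers, Alpi, Cdx1 and Lct, were well above background on 1, 5 and 1 of the 32 arrays, and the part of such cells in the level of Apoa4 was not tested.

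Apoa5 was higher on the MCD diet in 3 of the 4 settings. In untreated mice before PH the diets overlapped, with 4.48, 5.45, 4.91 and 5.10 in C and 4.65, 5.81, 4.85 and 5.78 in MCD, a difference of 0.29 ± 0.32 (adjusted p = 0.532). Under Fc-GLP-1 the same diets were apart, with 4.98, 4.69, 5.69 and 4.48 in C+Fc-GLP-1 and 6.90, 6.24, 6.80 and 6.99 in M+Fc-GLP-1. After PH the values were 3.43, 4.43, 4.15 and 3.99 in C and 5.75, 5.55, 5.76 and 5.75 in MCD. With Fc-GLP-1 after PH they were 3.85, 4.61, 4.50 and 4.07 on chow and 7.35, 6.15, 6.34 and 5.55 on MCD. In these 3 settings all MCD livers were above all chow livers. The differences were 1.78 ± 0.32 (3.42-fold, adjusted p = 0.000294), 1.70 ± 0.32 (3.25-fold, 0.000466) and 2.09 ± 0.32 (4.27-fold, 2.61e-05), and they passed the test in all alternatives.

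Among MCD-fed mice before PH, Apoa5 was 1.46 ± 0.32 higher with Fc-GLP-1 than without (2.75-fold, limma adjusted p = 0.00595), in all 18 alternatives. In chow-fed mice that difference was -0.03 ± 0.32 (0.977). The diet by treatment interaction was 1.49 ± 0.45 (adjusted p = 0.0441), but it passed in only 10 of 26 alternatives and in 5 of the 16 fits without 1 array, with adjusted p from 0.017 to 0.171. The calls were lost without C replicate 2, 3 or 4 (0.0504 to 0.0845), MCD replicate 1 or 3 (0.107 and 0.0908), C+Fc-GLP-1 replicate 1, 2 or 4 (0.0577 to 0.0896) and M+Fc-GLP-1 replicate 1, 3 or 4 (0.071 to 0.0779). After PH the difference between M+Fc-GLP-1 and MCD was 0.65 ± 0.32 (0.227). The order of group means of Apoa5 was C after (4.00 ± 0.42, SD), C+Fc-GLP-1 after (4.26), C+Fc-GLP-1 before (4.96), C before (4.99), MCD before (5.27), MCD after (5.70), M+Fc-GLP-1 after (6.35) and M+Fc-GLP-1 before (6.74 ± 0.34). Steps beyond the pooled SD were those of 0.70 between C+Fc-GLP-1 after and before PH and of 0.65 between MCD and M+Fc-GLP-1 after PH.

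**Figure D1:**
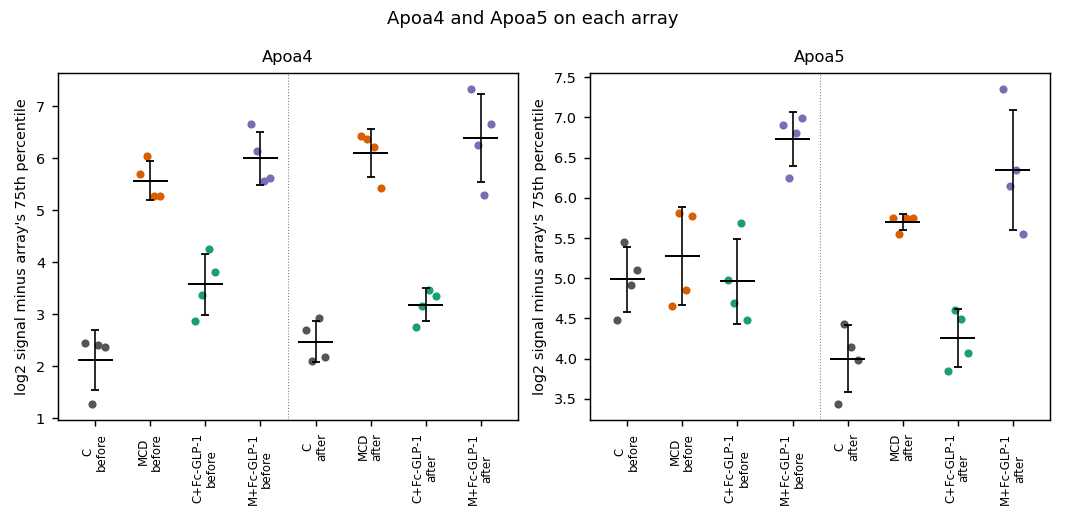
Level of Apoa4 (left) and Apoa5 (right) on each of the 32 arrays, as log2 signal minus the array's 75th percentile, with the 8 groups along the x axis and a dotted line between groups before and after PH. Points are arrays, horizontal bars are group means and error bars are SD (n = 4). Apoa4 was higher in every MCD-fed liver than in every chow-fed liver, from 2.12 on average in C before PH to 6.39 in M+Fc-GLP-1 after PH, and Apoa5 was highest in M+Fc-GLP-1 before PH.

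Of all 10 genes, 5 passed the test between MCD and C before PH, 1 higher and 4 lower, where 26.7% of all genes tested passed it (11.2% higher and 15.5% lower). The median difference was -0.54 over the 10 genes and -0.12 over all genes. Over the 10 genes it was -0.10 after normexp background correction and quantile normalization, -0.11 in the authors' normalized values and -0.18 with centring on the median. The groups did not overlap for 6 of the 10, against 28.3% of all genes. With Fc-GLP-1 before PH 2 passed, both higher (10.6% of all genes, 5.43% higher), and in untreated mice after PH 2 passed, both higher (12.3%, 6.24% higher). With Fc-GLP-1 after PH 3 passed, all higher (13.2%, 6.43% higher). Apoa4 was in all 4 of these counts and Apoa5 in 3. In bulk liver RNA, fewer cells of a type and less RNA per cell cannot be told apart.

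Of the HDL genes, Apoa1 was lower on MCD in untreated mice before PH in every alternative, while the sign of Apoa2 depended on the probe and the normalization. Apoa1 was 9.57, 8.82, 9.17 and 9.23 in C and 8.08, 7.99, 8.03 and 8.15 in MCD, with no overlap. The difference was -1.13 ± 0.21 (2.19-fold lower, adjusted p = 0.000184) and passed in every alternative. Under Fc-GLP-1 Apoa1 was 9.05, 9.05, 9.26 and 9.16 on chow and 8.72, 8.65, 8.30 and 8.45 on MCD, also without overlap, and the difference of -0.60 ± 0.21 (0.0605) passed in 3 of 18 alternatives (adjusted p from 0.0168 to 0.159). After PH the diets overlapped, with -0.29 ± 0.21 in untreated mice (0.406) and -0.24 ± 0.21 under Fc-GLP-1 (0.517).

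The brighter of the Apoa2 probes (A_55_P2178553) was 10.83, 10.17, 10.52 and 11.05 in C and 9.95, 9.77, 10.35 and 9.63 in MCD before PH. The groups overlapped and the difference was -0.71 ± 0.22 (limma adjusted p = 0.0177). The other Apoa2 probe (A_55_P1966035) gave 0.39 ± 0.33 in the opposite direction (0.398). With normexp background correction and quantile normalization the brighter probe turned to 0.16, and in the authors' normalized values to 0.20. The call was also lost with centring on the median (-0.35, 0.341) and with the mean over both probes (-0.16, 0.638). It was lost without C replicate 1 (-0.65, 0.0518) or 4 (-0.58, 0.0741) or MCD replicate 4 (-0.62, 0.0663), and its adjusted p ranged from 0.00672 to 0.638.

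Among the genes whose products move between particles, Apoe was 9.98, 10.06, 10.21 and 10.51 in C and 9.34, 9.62, 9.44 and 9.71 in MCD before PH. The difference was -0.66 ± 0.21 (1.58-fold lower, limma adjusted p = 0.0175) with no overlap. It was -0.08 under normexp and quantile normalization, -0.10 in the authors' values and -0.30 with centring on the median (limma adjusted p = 0.36), none past the test. The test was also missed without C replicate 4 (-0.55, 0.0667) or MCD replicate 1 (-0.60, 0.0538), with adjusted p from 0.0127 to 0.7. In the other 3 diet settings Apoe differed by -0.13, 0.12 and 0.04, with adjusted p of 0.751, 0.767 and 0.938.

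Apoc2, the gene of the lipase activator, was higher on MCD with Fc-GLP-1 after PH. It was 7.68, 8.73, 8.67 and 8.62 in C+Fc-GLP-1 and 9.41, 10.01, 9.05 and 9.20 in M+Fc-GLP-1, so that all 4 MCD livers were above the chow livers. The difference was 0.99 ± 0.23 (1.99-fold, limma adjusted p = 0.00362, from 0.00234 to 0.0674 over the alternatives). The test was missed under normexp (0.0534), in the authors' values (0.0674) and in a fit of the compared groups alone (0.0537). Apoc2 differed by 0.33 ± 0.23, 0.50 ± 0.23 and 0.43 ± 0.23 in the other 3 settings, none past the test.

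Apoc1, which lies next to Apoe, was between 9.18 and 9.998 in C and between 8.67 and 9.35 in MCD before PH, a difference of -0.58 ± 0.23 (adjusted p = 0.0548). Leaving out C replicate 1 (-0.72, 0.0274) or MCD replicate 4 (-0.68, 0.0435) brought it past the test, while the difference was -0.12 in the authors' values (0.673). Apoc3 by its brighter probe (A_55_P2117155) was between 9.52 and 9.68 in C and between 8.92 and 9.26 in MCD, with no overlap and -0.51 ± 0.24 (0.12). The dim Apoc3 probe (A_55_P2013710) was lower on MCD in untreated mice by 0.75 ± 0.27 before PH and 0.80 ± 0.27 after PH, and both passed the test (adjusted p = 0.0387 and 0.0463). Under Fc-GLP-1 it differed by -0.56 and -0.44 and did not pass (0.188 and 0.317). In chow-fed mice before PH the brighter Apoc3 probe differed by 0.02 ± 0.24 between C+Fc-GLP-1 and C, and by -0.81 under normexp and -0.85 in the authors' values. Both of these negative values passed the test (limma adjusted p = 0.0206 and 0.0218).

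**Figure D2:**
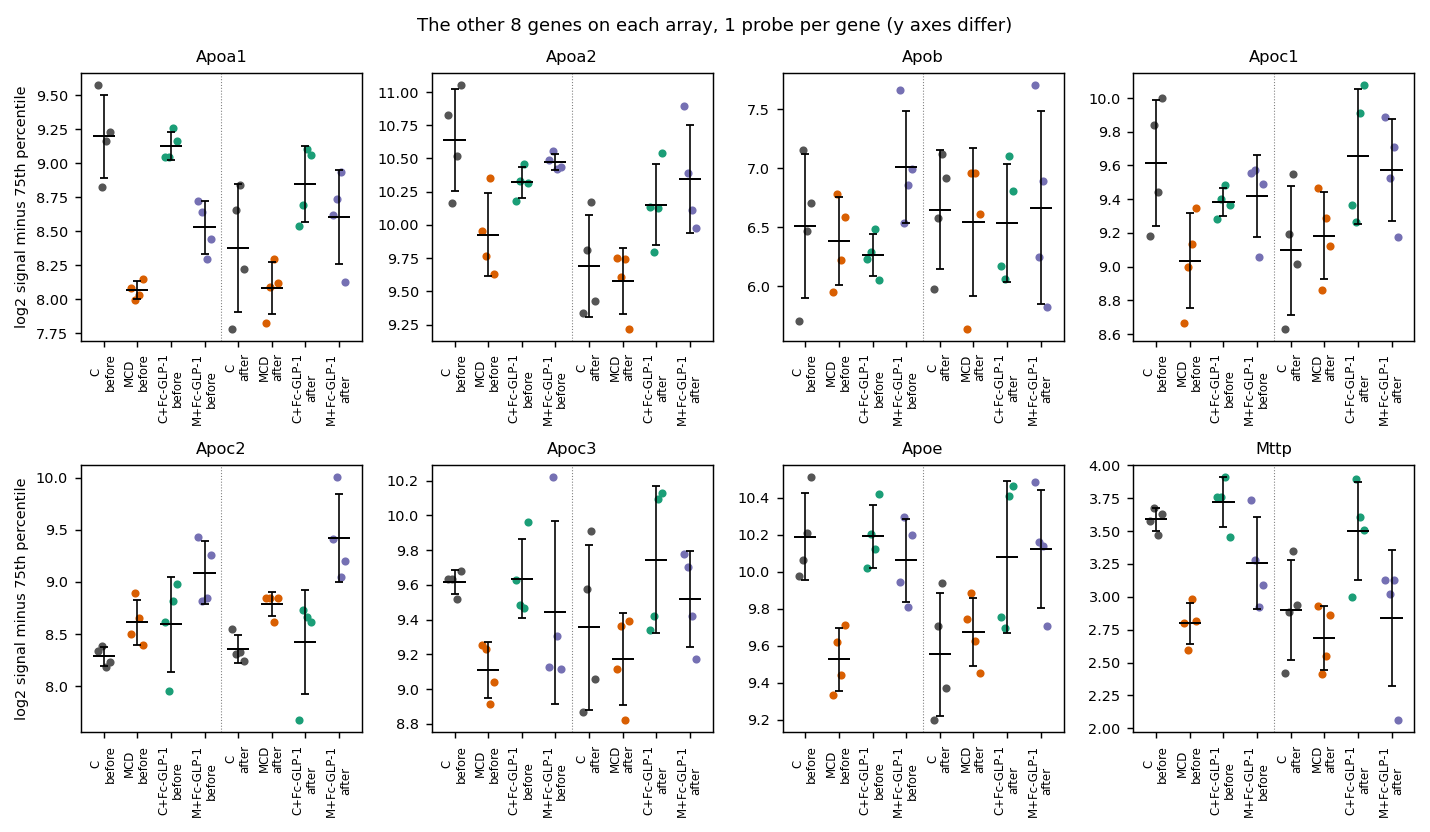
Levels of Apoa1, Apoa2, Apob, Apoc1, Apoc2, Apoc3, Apoe and Mttp on each of the 32 arrays, 1 probe per gene, as log2 signal minus the array's 75th percentile, with bars for group means and error bars for SD (n = 4). The y axes differ between panels. Apoa1 was between 7.99 and 8.15 in MCD before PH and between 8.82 and 9.57 in C before PH, and Apoc2 was above 9 in the 4 M+Fc-GLP-1 livers after PH.

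The genes that build the VLDL particle moved less than Apoa4. Mttp was 3.58, 3.68, 3.47 and 3.63 in C and 2.80, 2.60, 2.98 and 2.82 in MCD before PH, with every MCD liver below every C liver. The difference was -0.79 ± 0.23 (1.73-fold lower, limma adjusted p = 0.0126) and passed in 17 of 18 alternatives, the exception being centring on the median (-0.42, 0.215). With Fc-GLP-1 before PH Mttp differed by -0.46 ± 0.23 (0.211), with 3.76, 3.76, 3.91 and 3.46 on chow and 3.74, 3.28, 2.92 and 3.09 on MCD. After PH it differed by -0.21 ± 0.23 in untreated mice (0.626) and by -0.66 ± 0.23 under Fc-GLP-1 (0.0566). That last value passed the test without C+Fc-GLP-1 replicate 1 (-0.83, 0.023), M+Fc-GLP-1 replicate 1 (-0.76, 0.0492) or M+Fc-GLP-1 replicate 3 (-0.76, 0.0476).

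Apob by probe A_55_P1957198 was 5.70, 7.16, 6.47 and 6.71 in C and 5.95, 6.78, 6.22 and 6.58 in MCD before PH. It overlapped between the diets there, and its group means lay within 0.75 of each other over all 8 groups. The diet differences were -0.13 ± 0.36, 0.75 ± 0.36, -0.10 ± 0.36 and 0.13 ± 0.36 in the 4 settings, and none passed the test.

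The other Apob probe, A_52_P441070, gave another picture after PH. It was between 6.34 and 7.82 on the 24 arrays of the first scanner and between 3.13 and 3.77 on the 8 arrays of the second, which are C and MCD after PH. Between C+Fc-GLP-1 and C after PH it differed by 3.55 ± 0.28 (limma adjusted p = 1.27e-09), and between C after and before PH by -3.48 ± 0.28 (2.17e-09). For M+Fc-GLP-1 and MCD after PH the difference was 3.87 ± 0.28 (2.05e-10), and for MCD after and before PH -3.61 ± 0.28 (5.49e-10). Probe A_55_P1957198 differed by -0.11, 0.14, 0.12 and 0.16 in these comparisons, none past the test. Signal of A_52_P441070 minus that of A_55_P1957198 had a median of 0.61 on the first scanner and -3.29 on the second. The choice of A_55_P1957198 as the brighter probe over all arrays therefore rested on the arrays of the second scanner. Slide, scanner and group cannot be told apart here. Of 29302 probes kept, 10 were lower by more than 3 in both untreated groups after PH than before and 5 were higher.

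**Figure D3:**
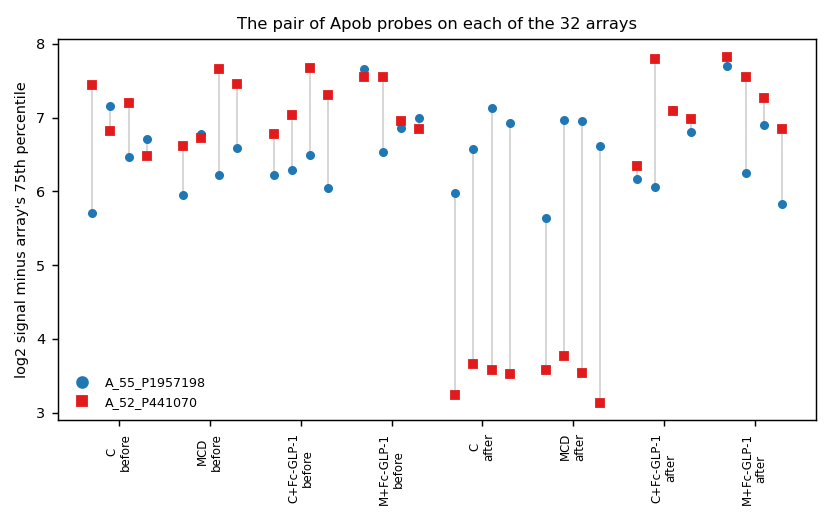
Both Apob probes on each of the 32 arrays, as log2 signal minus the array's 75th percentile, with the 4 arrays of each group side by side and a grey line joining the probes of an array. Circles (A_55_P1957198) stayed between 5.64 and 7.70 in all groups, and squares (A_52_P441070) were between 3.13 and 3.77 in C and MCD after PH.

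Few of the 10 genes passed the test between treated and untreated mice, where slide and treatment cannot be told apart. Between C+Fc-GLP-1 and C before PH 1 passed, Apoa4 (2.07% of all genes passed). Apoc3 also passed there, lower with Fc-GLP-1, under normexp and in the authors' values. After PH 0 passed between C+Fc-GLP-1 and C (2.01%). In that comparison after PH, 5 of the 10 had an unadjusted limma p under 0.05. There 9 differences were above 0, with a median of 0.47 against 0.04 over all genes. That median was 0.008 after normexp and quantile normalization and -0.0002 in the authors' values. The 75th percentiles of these arrays averaged 638 in C and 398 in C+Fc-GLP-1 after PH. Between M+Fc-GLP-1 and MCD before PH 1 passed, Apoa5 (7.41%, 4.51% higher), and all 10 differences were above 0 with a median of 0.47 against 0.10 over all genes. After normexp and quantile normalization, and in the authors' values, 5 of the 10 were below 0, and the medians were 0.08 and 0.09. Under these normalizations Apob (0.94 and 0.96, limma adjusted p = 0.0314 and 0.0357) and Mttp (0.96 and 0.97, 0.0211 and 0.0223) also passed, both higher with Fc-GLP-1. The 75th percentiles of the arrays averaged 517 in MCD and 292 in M+Fc-GLP-1 before PH. After PH 1 passed, Apoa2 (6.43%, 3.71% higher), with all 10 above 0, a median of 0.42 and 0.05 over all genes, but with 4 of the 10 below 0 and a median of 0.02 after normexp and quantile normalization. Of 10 macrophage markers 6 were lower with Fc-GLP-1 in MCD-fed mice before PH and 4 after PH, and their part in these differences was not tested. Apoa2 was 9.75, 9.61, 9.74 and 9.22 in MCD and 10.90, 10.39, 10.11 and 9.97 in M+Fc-GLP-1 after PH, without overlap. Its difference of 0.77 ± 0.22 (limma adjusted p = 0.0358) was -0.0023 under normexp and quantile normalization. The call was also lost without MCD replicate 1, 2 or 4 (adjusted p of 0.0569, 0.0765 and 0.102) or M+Fc-GLP-1 replicate 1 or 2 (0.149 and 0.0778), and its adjusted p ran from 0.0234 to 0.997 over all alternatives.

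After PH, 5 of the 10 genes were lower in C than in C before PH (14.4% of all genes passed, 8.27% lower). They were Apoa1 (-0.82 ± 0.21, adjusted p = 0.00834), Apoa2 (-0.95 ± 0.22, 0.0047), Apoa5 (-0.99 ± 0.32, 0.0349), Apoe (-0.63 ± 0.21, 0.0367) and Mttp (-0.69 ± 0.23, 0.0441). The arrays of C after PH were among the brightest, with 75th percentiles between 472 and 778 against 209 to 395 in C before PH. None of the 5 passed when the fit held these groups alone. Under normexp and quantile normalization only Apoa5 passed (-1.13, limma adjusted p = 0.00222), Apoa2 turned to 0.25 and Apoa1 and Apoe were -0.17 and -0.08, and the other Apoa2 probe gave 0.71. In the same comparison 10 of 10 macrophage markers were higher, with a median of 2.01, and hepatocyte markers had a median of -0.45 with 1 of 9 lower. The part of these cells was not tested. Leaving out C replicate 1 after PH kept 1 of the calls, with Apoa1 at 0.0608, Apoa5 at 0.141, Apoe at 0.144 and Mttp at 0.181. Apoa5 and Apoe were also lost without C replicate 4 after PH (0.0637 and 0.0933), replicate 3 before PH (0.055 and 0.066) or replicate 4 before PH (0.0726 and 0.115), Apoa5 without replicate 2 before PH (0.103), and Mttp without all but 1 of the 8 arrays in turn. By limma, 0 of the 10 passed between after and before PH in MCD (8.95% of all genes), with Fc-GLP-1 on chow (0.911%) and with Fc-GLP-1 on MCD (1.77%), with 0, 1 and 0 at an unadjusted p under 0.05. The diet effect under Fc-GLP-1 did not differ past the test between after and before PH for any of the 10 (0.0798% of all genes passed by limma, and 0 of the 10 had an unadjusted p under 0.05). The diet by treatment interaction before PH passed for 1 of the 10, Apoa5, and for 6.08% of all genes (3.4% higher).

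**Figure D4:**
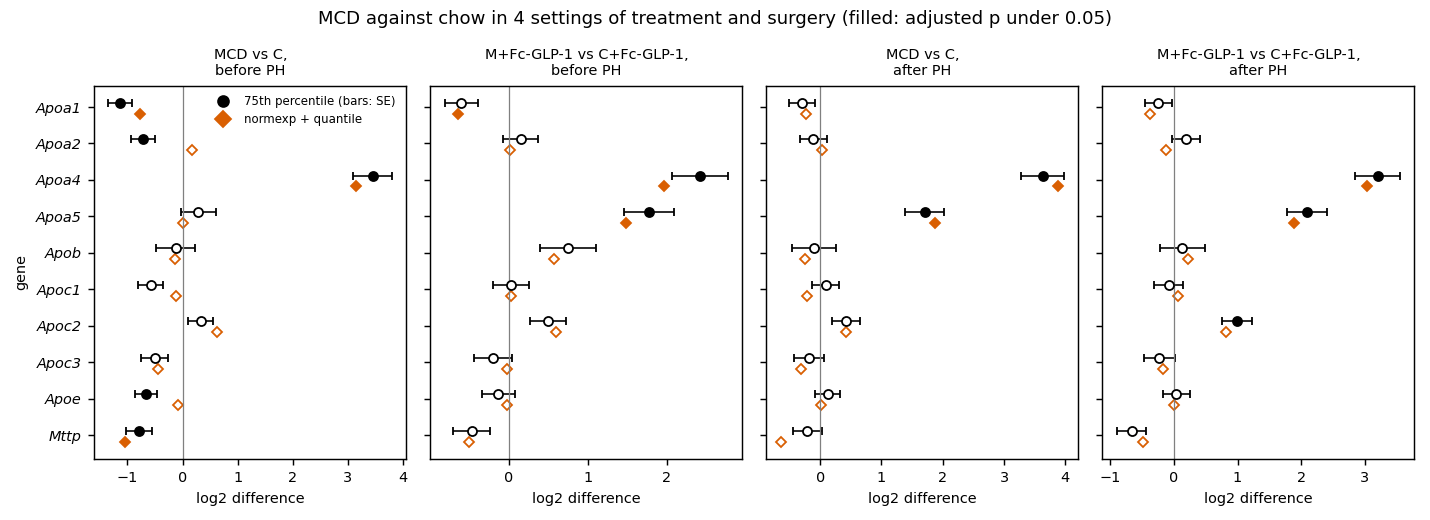
Difference between MCD and chow (x axis, log2) for the 10 genes (y axis) without and with Fc-GLP-1, before and after PH. Circles with SE bars are values centred on the array's 75th percentile, diamonds are values after normexp background correction and quantile normalization, and filled symbols have an adjusted p under 0.05. Apoa4 was filled in both settings in all panels, while Apoe before PH moved from -0.66 to -0.08.

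Several of the bright members went with the brightness of their array, though not all. Apoe was at a median of 88.0% of the brightest spot of its array, with 139 of 320 spot values within 10% of it. The brighter Apoa2 probe was at 80.9%, Apoc1 at 65.1%, Apoc3 at 52.0%, Apoc2 at 33.9% and Apoa1 at 29.9%, while Apoa5 was at 3.48%, Apoa4 at 1.36% and Mttp at 0.918%. Over the 32 arrays, the centred value went with the negative log2 of the 75th percentile with a Pearson r of 0.91 for Apoe, 0.86 for Apoa2, 0.76 for Apoa1, 0.65 for Apoc1, 0.64 for Mttp and 0.62 for Apoc3. It was 0.32 for Apoa5, 0.23 for Apob, 0.19 for Apoc2 and -0.014 for Apoa4, so that neither the bright Apoc2 nor the dim Mttp followed the order of brightness. The percentile enters both measures, and these are descriptions of arrays that share slides and groups.

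The MCD arrays before PH had 75th percentiles between 442 and 564 and those of C between 209 and 395, a difference of 0.83 in mean log2. Without centring, MCD minus C before PH was -0.30 for Apoa1, 0.12 for Apoa2, 0.17 for Apoe and 0.04 for Mttp, and 4.28 for Apoa4. The part of array brightness in the lower values of the bright genes was not tested. Apoa4 was above the chow groups with and without centring.

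**Figure D5:**
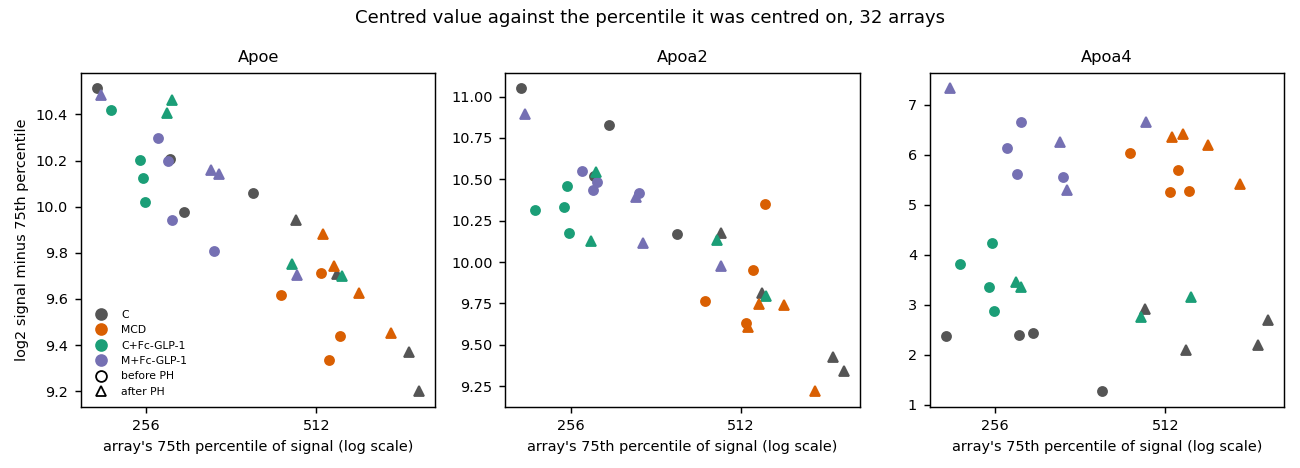
Level of Apoe, Apoa2 and Apoa4 (y axis, log2 signal minus the array's 75th percentile) against that percentile (x axis, log scale) on 32 arrays. Colours are the diet and treatment groups, circles are before PH and triangles after PH. Apoe (r = 0.91 with the negative log2 percentile) and Apoa2 (0.86) fell from dim to bright arrays, and Apoa4 (-0.014) was split by diet.

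Other genes of lipoprotein metabolism were counted by lists, against the shares of all genes given above. Between MCD and C before PH, 1 of 11 tested other apolipoproteins rose and 3 fell. Apobr, a receptor for apolipoprotein B, rose by 1.50, and Saa4, an HDL protein, and Apon fell by 1.86 and 1.24 on the log2 scale. Of 26 genes of VLDL assembly and secretion, 1 rose and 4 fell. Tmem41b, needed for lipoprotein export from the endoplasmic reticulum, rose by 0.67 (limma adjusted p = 0.0319, lost in 6 of 18 alternatives), and Aadac and Ces1d, lipases of hepatocyte lipid stores, fell by 1.03 and 1.02.

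Of 13 plasma lipases, transfer proteins and their regulators, 0 rose and 4 fell on MCD before PH by limma. Pltp, the phospholipid transfer protein of plasma, fell by 2.06 and Lmf1, which matures lipoprotein lipase, fell by 1.80 (adjusted p = 4.21e-07). Of 11 receptors and partners 4 rose, among them Cd36, a fatty acid transporter, by 2.21 and Vldlr, the VLDL receptor, by 1.72, and 1 fell, Lrp1, a remnant receptor, by 1.07. Of 18 regulators 0 rose and 6 fell, led by Nr0b2, a repressor of bile acid synthesis, by 1.76 and Srebf1, a regulator of fatty acid synthesis, by 1.69 on the log2 scale. Median differences of these lists lay between -0.52 and 0.13 against -0.12 for all genes.

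With Fc-GLP-1 after PH, MCD against chow showed Vldlr 2.89 higher (limma adjusted p = 9.57e-05) and Cd36 1.50 higher, the 2 higher calls among 11 receptors and partners. Angptl4, an inhibitor of lipoprotein lipase, was 2.30 higher, and Lipc, hepatic lipase, was lower by 1.96 and Pon1, an HDL enzyme, by 1.05. Of the 13 genes of that list 1 was higher and 3 lower. Among 18 regulators 2 were higher, Ppargc1b (2.09) and Ppargc1a (1.35), coactivators of fat oxidation, and 2 lower, Srebf1 (-1.50) and Mlxipl (-0.77), the last lost in 12 of 18 alternatives. Among 26 VLDL assembly genes 2 were higher, Sec23a (0.96, 13 of 18 alternatives) and Lpcat3 (0.76, 11 of 18), and 3 lower, among them Aadac (-1.12), and Saa4 (-1.78) was the only call among the 11 other apolipoproteins.

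In MCD-fed mice with Fc-GLP-1, calls in these lists were few, as they were over all genes (7.41% before and 6.43% after PH). Before PH, Tm6sf2, which promotes the lipidation of VLDL, exceeded its MCD level by 1.06 under Fc-GLP-1 and was the only call among 26 VLDL assembly genes. It passed in 13 of 18 alternatives. Ppargc1a was 1.68 higher, the only call among 18 regulators, and Cd36 was lower by 1.56, the only call among 11 receptors. After PH Cd36 was lower by 1.79, and Apoc4, the neighbour of Apoc2, was 0.88 higher (12 of 17 alternatives). No call was made by limma in the VLDL assembly, lipase or regulator lists after PH.

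Markers of liver cell types differed between the diets in untreated mice before PH. The summed level of the 9 hepatocyte markers tested was between 5560 and 7546 times the 75th percentile in C and between 3940 and 4698 in MCD, and 2 of the 9 passed the test, both lower. That of 10 macrophage markers was between 62.4 and 114 in C and between 131 and 372 in MCD (8 of 10 higher), and that of 8 stellate cell markers between 69.8 and 90.3 in C and between 186 and 380 in MCD (4 of 8 higher). Under Fc-GLP-1 before PH, 0 of 9 hepatocyte markers passed by limma, and 1 of 10 macrophage and 1 of 8 stellate cell markers were lower. These sums are relative to the 75th percentile, which averaged 296 in C and 517 in MCD before PH. The part of array brightness in the sums was not tested, nor was the part of these cells in the lower Apoa1, Apoa2, Apoe and Mttp.

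The genes most like the 3 members with the widest range were taken by Pearson correlation over the 32 arrays. For Apoa4 they were a transcript named only by its place on chromosome 19 (0.95), Fut1 (0.90) and Cyp2b13 (0.90). For Apoa5 they were Pex11a, a peroxisome protein, Plin5, a lipid droplet protein, and Acadl, an enzyme of fatty acid oxidation (0.91, 0.87 and 0.87), all highest in M+Fc-GLP-1 before PH. For Apoa1 they were an unnamed probe (0.89), Cyp2c29 (0.89) and a transcript named only by its place on chromosome 1 (0.87). Among the members, Apoc1 and Apoe went together over all arrays (0.83) and within groups (0.77), Apoa1 and Mttp at 0.81 and 0.57, and Apoa4 and Apoa5 at 0.74 but 0.10 within groups. These arrays share groups and slides, and the percentile subtracted on an array enters every value on it. Apoe, Apoa1, Apoc1 and Mttp each went with the negative log2 of that percentile (0.91, 0.76, 0.65 and 0.64). The part of array brightness in these correlations was not tested.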

How the data were processed

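RNA of 32 mouse livers was labelled with Cy3 and read on Agilent arrays. The authors deposited intensity values of each array as Feature Extraction 10.7.3.1 gave them (processed signal, background corrected, per the file headers), and a table of log2 values normalized with limma, separately before and after PH. Deposited log2 columns correlated best with their own array for all 32. Spots flagged as outliers were left out, spots of a probe were averaged, and log2 processed signal minus the array's 75th percentile was used. The filter kept 29302 of 55681 probes, those well above background on every one of the 4 arrays in some group. A gene's brightest probe by the mean over all 32 arrays was used for it (21290 genes). A model over the 8 groups, without covariates, was fitted with limma 3.58.1 (R 4.3.3), with Benjamini-Hochberg adjustment and a threshold of 0.05. There were 12 comparisons between groups and 2 interactions. The script was tested on simulated data.

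The 10 genes and the lists were chosen with earlier results of these data known. Named were the 10 genes, from each list up to 2 genes in each direction with the largest change among those past the test without overlap, and the 3 genes most like each of the 3 members of widest range. A gene of the receptor list is not reported here. Alternatives were normexp with an offset of 50 and quantile normalization, centring on the median, the percentile over the 18237 probes above background everywhere, the authors' values (within a time), no filter, the mean over probes, the groups compared alone, a replicate block and leaving out each array. The brightest probe of each gene was run as a further alternative. With no spot flagged as saturated it was the rule already used, so it repeated the reported values. It is counted in every number of alternatives given here. After seeing the data, each other probe of a member and the fit without the second scanner were added. Same-numbered arrays correlated between -0.19 and 0.51 in their deviations, so the numbers were not taken as pairs. The number of arrays limits the precision. Replicates are labelled biological, but not tied to animals, and p-values measure the spread between these samples.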

Additional observations from a re-analysis of the deposited data

Results flagged for a closer look

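Of 80 combinations of member and group, 6 held an array far from the other 3 by Dixon's test, which chance flags in about 1 in 20. They were Apoa4 in C replicate 2 before PH (1.27), Apoa5 in MCD replicate 2 after PH (5.55), Apoc1 in M+Fc-GLP-1 replicate 3 before PH (9.05), Apoc2 in C+Fc-GLP-1 replicate 1 (7.68) and MCD replicate 3 (8.62) after PH, and Mttp in M+Fc-GLP-1 replicate 4 after PH (2.06). The Apoa5 and Apoc2 values in MCD after PH were far only relative to a narrow group, with SD of 0.10 and 0.11.

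The difference of Apoa5 between Fc-GLP-1 and no treatment before PH was larger on MCD than on chow, with an interaction of 1.49 on the log2 scale (limma adjusted p = 0.0441, from 0.017 to 0.171 over the alternatives).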

How the results depend on the processing

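Members called kept within 1.5 times of the count reported in 95 of 121 planned settings of a comparison and in 8 of 9 added later. The 121 include the setting with the brightest probe, which could only repeat the reported values. Under normexp and quantile normalization and in the authors' values, 3 members passed between MCD and C before PH (3 also with median centring), 2 between C+Fc-GLP-1 and C before PH, 3 between M+Fc-GLP-1 and MCD before PH and 0 between M+Fc-GLP-1 and MCD after PH. That last count was also 0 with median centring, without the filter and with only the groups compared. Between C after and before PH it was 1 (normexp, median), 2 (percentile over probes above background), 3 (no filter) and 0 (only the groups compared), where C+Fc-GLP-1 against C before PH also had 0. The mean over probes gave 1 between C+Fc-GLP-1 and C after PH and 1 between MCD after and before PH. Normexp gave 1 between after and before PH in MCD and 1 in C+Fc-GLP-1. The diet by treatment interaction before PH had 0 with median centring, no filter, only the groups compared, the replicate block and without the second scanner; the block changed no other call of a member.

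Leaving out 1 array gave 3 to 5 members between MCD and C before PH, 0 to 1 for C+Fc-GLP-1 against C before PH, M+Fc-GLP-1 against MCD after PH and the interaction, 3 to 4 for M+Fc-GLP-1 against C+Fc-GLP-1 after PH and 1 to 5 between C after and before PH. Other counts did not move.

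Where the test was passed before or after the change, directions turned for Apoa2 between MCD and C before PH (0.16 normexp, 0.20 authors' values, 0.39 other probe), between M+Fc-GLP-1 and MCD after PH (-0.0023 normexp) and between C after and before PH (0.25 normexp, 0.71 other probe). They turned for Apoc3 between C+Fc-GLP-1 and C before PH (-0.81 normexp, -0.85 authors' values). For Apob they turned between C+Fc-GLP-1 and C after PH (1.72 mean over probes, 3.55 other probe) and after against before PH in C (-1.67, -3.48) and MCD (-1.72, -3.61). Without passing the test in either, others turned too in the authors' values: between M+Fc-GLP-1 and MCD before PH Apoc2 went from 0.48 to -0.70 and Apoc3 from 0.33 to -0.42, and between C+Fc-GLP-1 and C before PH Apoc2 went from 0.31 to -0.66. The cause was not tested.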
